A study of Mus musculus with 4 samples.

Results

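Malat1 and Neat1 are long noncoding RNAs of the nucleus whose genes are neighbours on mouse chromosome 19, and Gm37376 is a short gene model that lies inside Malat1 on the other strand. These 3 genes, chosen by name out of 50600 genes listed in the count tables, were followed through 4 libraries of total RNA from cultured mouse T-helper 2 cells. Every other gene with an exon opposite a member was looked for, and 1 was found. It is ENSMUSG00000092267, which also lies inside Malat1 and for which the annotation used here gives no symbol.

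The libraries form 1 group of 4 replicates, without a control or a treatment. They come from primary cells of mouse strain C57BL/6NJ, differentiated in culture from CD4 T cells into T-helper 2 cells, a subset known for interleukin 4. By the labels these are biological replicates 1 to 4 with a common donor identifier, of sex not collected and unknown age. No source used here says whether they were separate animals or cultures, so p-values measure only how far these 4 samples differ, and that spread may be technical in part. The libraries are not all alike in Xist, the RNA of the inactive X chromosome of female cells, with 71, 89, 2 and 8 counts in replicates 1 to 4, nor in Tsix, opposite it, with 3465, 2990, 3 and 4. What separates replicates 1 and 2 from 3 and 4 in these genes was not tested. The file headers carry a time of 16 hours, which is absent from the labels. The assay is titled total RNA, whereas the linked protocol is named for poly(A) RNA. The mature Malat1 RNA and the long Neat1 RNA lack an ordinary poly(A) tail, and whether the libraries captured such RNAs was not tested.

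Malat1 collects in nuclear speckles, the bodies rich in splicing factors, and is among the most abundant noncoding RNAs of many mammalian cells. Neat1 is the architectural RNA of paraspeckles, nuclear bodies that form around its long isoform together with RNA-binding proteins such as Sfpq and Nono, while its short isoform ends at an upstream poly(A) site. RNase P, the enzyme that trims transfer RNA precursors, cuts both primary transcripts just before a tRNA-like fold, and the new 3′ end is held in a triple helix between an A-rich end and U-rich stretches upstream of it.

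Both 3′ ends can be read from the transcript sequences of GENCODE release M21 on GRCm38, the assembly also called mm10. They are shown because the RNAs share sequence there, where the cleaved ends form. Capitals mark an A-rich stretch of 11 bases common to both and, upstream of it, the reverse complement of its core of 10 bases. Other bases common to both windows, among them a U-rich run further upstream, are in small letters. The windows are chr19:5795982-5796101 for Malat1 and chr19:5824708-5824827 for Neat1, both on the minus strand and both 120 bases long.
Malat1: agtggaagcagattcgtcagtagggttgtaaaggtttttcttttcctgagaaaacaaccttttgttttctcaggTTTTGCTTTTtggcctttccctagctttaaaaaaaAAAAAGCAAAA
Neat1: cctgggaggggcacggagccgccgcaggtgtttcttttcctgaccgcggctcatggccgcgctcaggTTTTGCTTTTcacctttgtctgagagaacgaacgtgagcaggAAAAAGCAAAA
On the transcript strand, the only strand searched, each stretch occurs once in the full-length Malat1 sequence and once in that of Neat1. Among all 141767 transcripts of the release, AAAAAGCAAAA is present in 618 (0.436%) and TTTTGCTTTT in 1528 (1.08%). The Neat1 entry ends at this stretch, whereas the Malat1 entry runs on for another 292 bases. The next 60 bases of the Malat1 entry, chr19:5795922-5795981 on the minus strand, stand in the place that Gm27702, a separate small RNA entry of 56 bases at chr19:5824652-5824707, takes beside Neat1.
Malat1, after the stretch: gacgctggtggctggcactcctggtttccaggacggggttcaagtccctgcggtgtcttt
Gm27702: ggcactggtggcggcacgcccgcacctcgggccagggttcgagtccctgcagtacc
Gm27702 had no count in any library.

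The genes opposite Malat1 cover a small part of it. Malat1 (ENSMUSG00000092341.2) is a single exon of 6983 bases on the minus strand, chr19:5795690-5802672, classed as lincRNA. Gm37376 (ENSMUSG00000102349.1) is a single exon of 453 bases on the plus strand, chr19:5801941-5802393, in the TEC class of gene models that still await experimental support. Its whole length (100%) lies opposite Malat1, 280 to 732 bases from the Malat1 start, and covers 6.49% of Malat1. The unnamed gene ENSMUSG00000092267.1 has exons of 182 and 243 bases on the plus strand, chr19:5797562-5797743 and chr19:5798307-5798549, with an intron of 563 bases between them. It lies 4124 to 5111 bases from the Malat1 start, and its exons cover 6.09% of Malat1. Together the opposite exons span 878 bases (12.6%) and leave 6105 bases of Malat1 with no gene opposite.

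**Figure D1:**
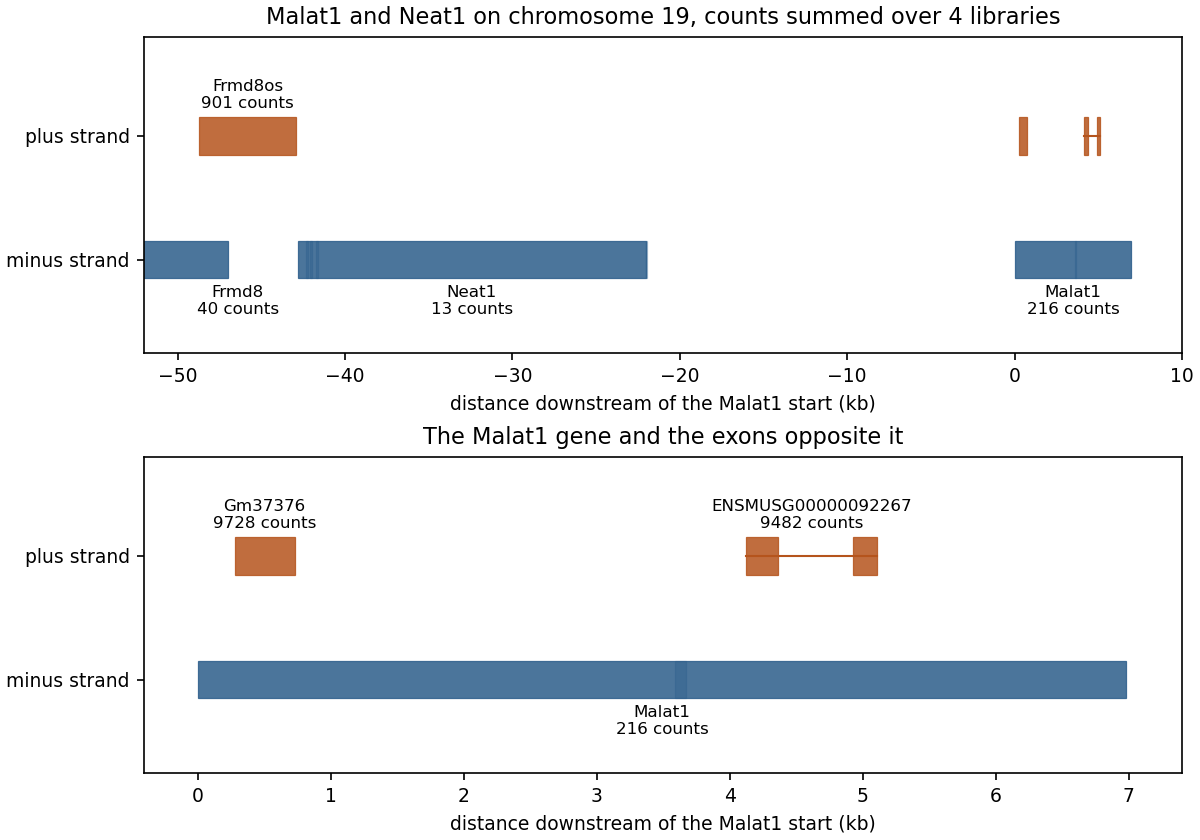
Exons on the plus strand (orange) and on the minus strand (blue) of chromosome 19, by distance downstream of the Malat1 start in kilobases, with the counts of each gene summed over 4 libraries; the upper panel spans Neat1 to Malat1 and the lower panel Malat1 alone. Malat1 had 216 counts, while Gm37376 and ENSMUSG00000092267, which cover 12.6% of it from the other strand, had 9728 and 9482.

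Sequence shows how the unnamed gene sits on the plus strand and how Gm37376 differs from it. The intron of ENSMUSG00000092267 starts with GT and ends with AG (capitals) when read on the plus strand, at chr19:5797724-5797763 and chr19:5798287-5798326.
Exon 1 into the intron: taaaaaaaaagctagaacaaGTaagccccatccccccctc
Intron into exon 2: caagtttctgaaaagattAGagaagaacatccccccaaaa
Gm37376 has no intron, and its first 60 bases at chr19:5801941-5802000 are given on both strands, since counts were assigned by strand.
Gm37376, plus strand: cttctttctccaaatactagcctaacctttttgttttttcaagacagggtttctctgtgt
Malat1, minus strand: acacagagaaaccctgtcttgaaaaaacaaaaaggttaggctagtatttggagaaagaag
Of the 429 runs of 25 bases in Gm37376, 127 (29.6%) also occur, on either strand, in transcripts of other genes, 3079 of them in all. Of the 377 such runs in the exons of ENSMUSG00000092267, none (0) did, so such shared stretches were found in Gm37376 and not in the other opposite gene.

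Neat1 has no exon opposite. Neat1 (ENSMUSG00000092274.2) is listed as a single exon of 20771 bases on the minus strand, chr19:5824708-5845478, 22035 bases from Malat1, and is also classed as lincRNA. Its entry spans the full-length transcript, Neat1-201, and the release lists shorter ones of 3004, 1030 and 711 bases. The nearest plus-strand gene, Frmd8os, begins 144 bases beyond the Neat1 start and shares no base with it, so fragments counted to the plus strand over Neat1 would belong to no gene of the tables. Gm27694 lies within Malat1, and Gm27533, Gm27505 and Gm28006 within Neat1, all 4 on the same strand as their host and all without a count. The headers name no option that would assign a read pair overlapping several genes, so pairs over these small entries are counted to neither gene.

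Libraries differed in depth and in ribosomal RNA, and both touch the values below. Totals ran from 1688658 to 2222583 counts, so that 3 counts, the limit that a count of 0 allows, correspond to 1.35 to 1.78 in CPM (the count scaled by the library total to a common sum). Replicate 3 stood apart: CT010467.1, an rRNA entry opposite the lincRNA entry Gm42418, held 1.29%, 5.05%, 9.40% and 1.62% of the counts in replicates 1 to 4. Most counts lay in genes with an exon opposite, and genes with none held 8.31%, 7.75%, 6.70% and 9.93%. The mitochondrial gene mt-Nd6, the only mRNA gene on its strand of that genome, held 87.2 to 92.0% of the mitochondrial mRNA counts. Whether strand option 1, which the headers record, matches the library kit is not stated in the labels or headers and was not tested from reads. If it does not, the counts listed for a gene are of fragments from the other strand, and every level given here, those of Malat1, Neat1, the lists and the markers included, would be a level of that other strand.

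On the strand as counted, Malat1 was low and Gm37376, opposite it, was high. With the strands turned, the counts listed for Gm37376 and ENSMUSG00000092267 would be Malat1 fragments from the parts of Malat1 that they cover. Malat1 had 39, 59, 63 and 55 counts in replicates 1 to 4, which is 4.78, 7.33, 6.04 and 6.14 TPM (a measure of transcript abundance, counts per kilobase of the deposited gene length, scaled to the same sum in every library). Gm37376 had 1323, 1777, 4637 and 1991 counts, or 2502, 3405, 6850 and 3427 TPM. The lowest Gm37376 library lay far above the highest Malat1 library, and replicate 3 was the highest for Gm37376 but not for Malat1 in TPM. ENSMUSG00000092267 had 1326, 1619, 4689 and 1848 counts, or 2673, 3306, 7383 and 3390 TPM. Its libraries fell in the same order as those of Gm37376 in counts, and replicate 3 was again the highest. Neat1 had 4, 5, 2 and 2 counts, or 0.165, 0.209, 0.0644 and 0.0751 TPM, and every Neat1 value lay below every Malat1 value. In bulk RNA, fewer cells that express a gene and less RNA per cell cannot be told apart.

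Mean levels were 6.07 ± 1.04 TPM for Malat1, 4046 ± 1918 TPM for Gm37376, 4188 ± 2154 TPM for ENSMUSG00000092267 and 0.128 ± 0.0701 TPM for Neat1 (SD, n = 4). From high to low the order of mean TPM was ENSMUSG00000092267, Gm37376, Malat1 and Neat1. The first 2 changed places between libraries and did not differ beyond their spread, while Malat1 and Neat1 did not overlap with each other or with the opposite genes. Among all 50600 genes Gm37376 stood at place 33 by mean TPM and 128 by mean count, and ENSMUSG00000092267 at 32 and 134. Malat1 stood at place 4487 by mean TPM and 2769 by mean count.

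**Figure D2:**
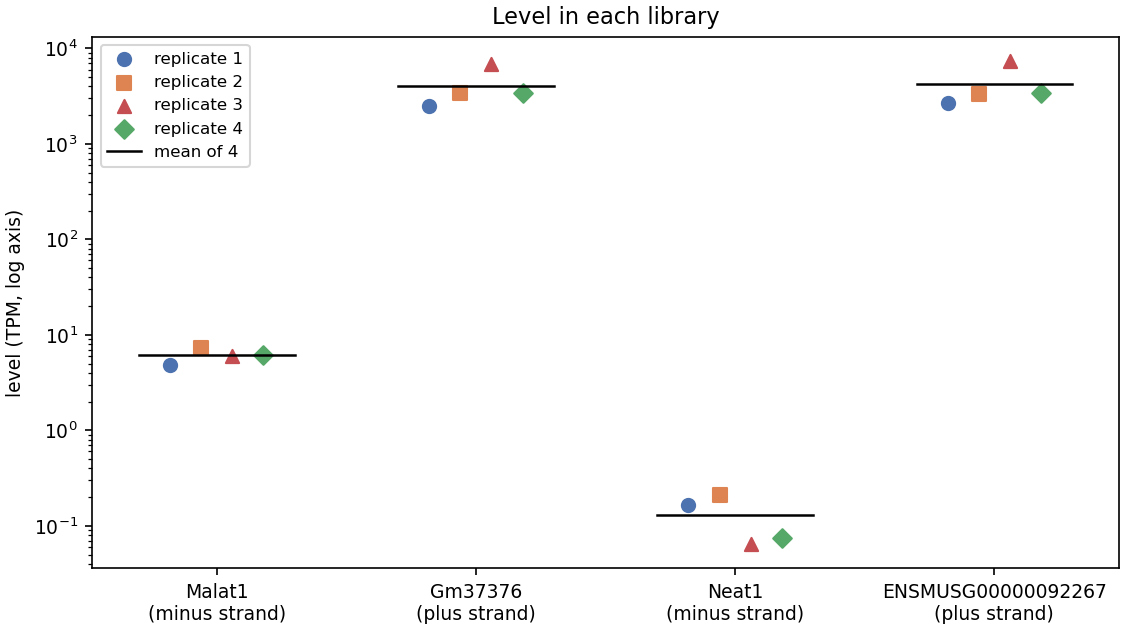
Level of each gene in TPM on a log axis, with a symbol per library and a line at the mean of the 4. Both plus-strand genes opposite Malat1 lie between 2502 and 7383 TPM, Malat1 between 4.78 and 7.33 TPM and Neat1 between 0.0644 and 0.209 TPM.

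Gm37376 held nearly all counts of the pair that it forms with Malat1. The share of Gm37376 was 97.1%, 96.8%, 98.7% and 97.3% in replicates 1 to 4. The 95% Wilson intervals, in that order, spanned 96.1 to 97.9%, 95.9 to 97.5%, 98.3 to 99.0% and 96.5 to 97.9%. The mean was 97.5 ± 0.82% (SD, n = 4), and only the interval of replicate 3 lay clear of the others. With ENSMUSG00000092267 added, the opposite genes held 98.5%, 98.3%, 99.3% and 98.6% of 2688, 3455, 9389 and 3894 counts. The intervals cover counting error only. All these shares hold for the strand option as recorded. With the strands turned they would be shares of Malat1, and the share left to Gm37376 could not be given, since the tables do not place the 216 counts listed for Malat1 along its exon.

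Per kilobase the contrast was larger, because the opposite genes are short. Counts per kilobase of Gm37376 were 523, 464, 1135 and 558 times those of Malat1 in replicates 1 to 4, with a mean of 670 ± 312 (SD, n = 4). For ENSMUSG00000092267 the ratio to Malat1 was 559, 451, 1223 and 552, with a mean of 696 ± 355 (SD, n = 4). By contrast, the ratio of ENSMUSG00000092267 to Gm37376 per kilobase was 1.07, 0.971, 1.08 and 0.989, with a mean of 1.03 ± 0.0543 (SD, n = 4). The 2 opposite genes, which lie 3391 bases apart, thus had nearly equal counts per kilobase in each library, including replicate 3.

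Within libraries the difference of log2(TPM + 1) between Gm37376 and Malat1 was 8.76, 8.67, 9.93 and 8.91, with a mean of 9.07 ± 0.58 (SD, n = 4). That between Malat1 and Neat1 was 2.31, 2.79, 2.72 and 2.73, with a mean of 2.64 ± 0.22 (SD, n = 4). Both had the same sign in 4 of 4 libraries and exceeded the spread between libraries. The two-sided exact sign-flip test over 16 sign patterns gave p = 0.125 for each, the smallest value that 4 libraries allow, so neither can pass 0.05, and Benjamini-Hochberg adjustment over the 2 comparisons leaves 0.125. The pseudocount of 1 TPM understates the difference between Malat1 and Neat1, which was 4.79 with a pseudocount of 0.1. Without length scaling, on log2(CPM + 1), Gm37376 exceeded Malat1 by 5.30.

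On the strand as counted, Neat1 was close to the limit of detection. With the strands turned, Neat1 fragments would be counted to no gene, and its level could not be given. Exact 95% Poisson intervals were 1.09 to 10.2 for the 4 counts of replicate 1, 1.62 to 11.7 for the 5 of replicate 2 and 0.242 to 7.22 for the 2 counts of replicates 3 and 4. All 4 intervals overlap, but they are for raw counts, without regard to library totals, and overlap is not a test. A difference in Neat1 between libraries was not tested. Summed over the libraries, Malat1 had 49.4 times the counts per kilobase of Neat1 (exact 95% interval 28.3 to 94.3). The interval covers counting error only, not the spread between libraries, and takes the full length of Neat1. By the length of its short isoform Neat1 was at 0.887 TPM in place of 0.128 TPM, which would lower the ratio. The edgeR filter on low counts removed Neat1 before the test of variation, so that 2 of the 3 members were tested.

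Between replicates, the genes opposite Malat1 were among the most variable genes tested, while Malat1 was not called. With edgeR's quasi-dispersion test, one-sided for excess spread and with Benjamini-Hochberg adjustment, 22 of 4918 tested genes (0.447%) varied beyond the trend at an adjusted p under 0.05. The filter had removed genes low in some libraries, such as Tsix, so the places below hold among tested genes only. Gm37376 was 1 of the genes called (F = 30.3, adjusted p = 5.84e-07 with edgeR), with the third smallest p. ENSMUSG00000092267 had the second smallest (F = 33.9, adjusted p = 1.95e-07 with edgeR), after CT010467.1 (adjusted p = 4.54e-15 with edgeR). For Malat1 F was 0.65 and the edgeR adjusted p was 0.991. Malat1 had 39 to 63 counts per library, against 1323 to 4689 for the opposite genes. In simulated data the test called 19 of 65 genes (29.2%) raised 2-fold in 1 library. The absence of a call therefore does not show that Malat1 was steady. The difference in spread between Malat1 and the opposite genes was not itself tested.

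Replicate 3 was the library farthest from the mean for both opposite genes. In CPM, replicate 3 was 2.17 times the mean of the other libraries for Gm37376 and 2.33 times for ENSMUSG00000092267, against 0.978 times for Malat1. Leaving out the most distant library must weaken a test of spread. Without replicate 3 the edgeR adjusted p was 0.801 for Gm37376 (unadjusted 0.0255) and 0.98 for ENSMUSG00000092267 (unadjusted 0.144). With library totals in place of TMM factors, the edgeR adjusted p was 0.0509 for Gm37376, just over the threshold of 0.05, and 0.0483 for ENSMUSG00000092267. As departures from the mean of each gene on the log2 CPM scale, Gm37376 was at -0.61, -0.12, 0.97 and -0.24 and ENSMUSG00000092267 at -0.55, -0.20, 1.04 and -0.29 in replicates 1 to 4. Malat1 was at -0.35, 0.31, 0.11 and -0.08.

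Ribosomal RNA moved with replicate 3 as well. CT010467.1 was 3.54 times as high in CPM in replicate 3 as in the mean of the others, with departures of -1.33, 0.71, 1.7 and -1.08. It was above its mean in replicate 2, where Gm37376 was not, and its part in the spread of Gm37376 was not tested. With CT010467.1 left out before normalisation, the edgeR adjusted p of Gm37376 was 9.63e-07. Leaving out 1 entry does not alter the counts of other genes, so this setting does not test the part of ribosomal RNA. Of the 22 called genes 9 were highest in CPM in replicate 3 and 4 were lowest there, and of all 4918 tested genes 738 (15%) were highest there.

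**Figure D3:**
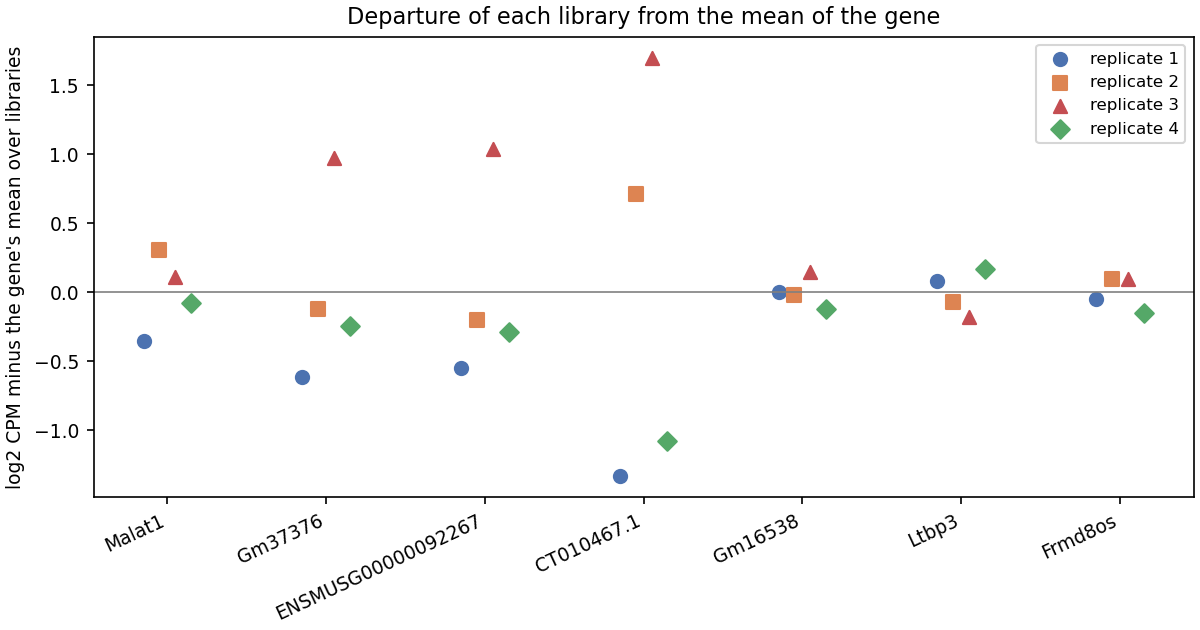
Departure of each library from the mean of the gene over libraries, in log2 CPM, for Malat1, both genes opposite it, CT010467.1 and the tested neighbours Gm16538, Ltbp3 and Frmd8os. Replicate 3 lies at 0.97 for Gm37376 and 1.04 for ENSMUSG00000092267 but at 0.11 for Malat1, and between -0.18 and 0.15 for these neighbours.

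**Figure D4:**
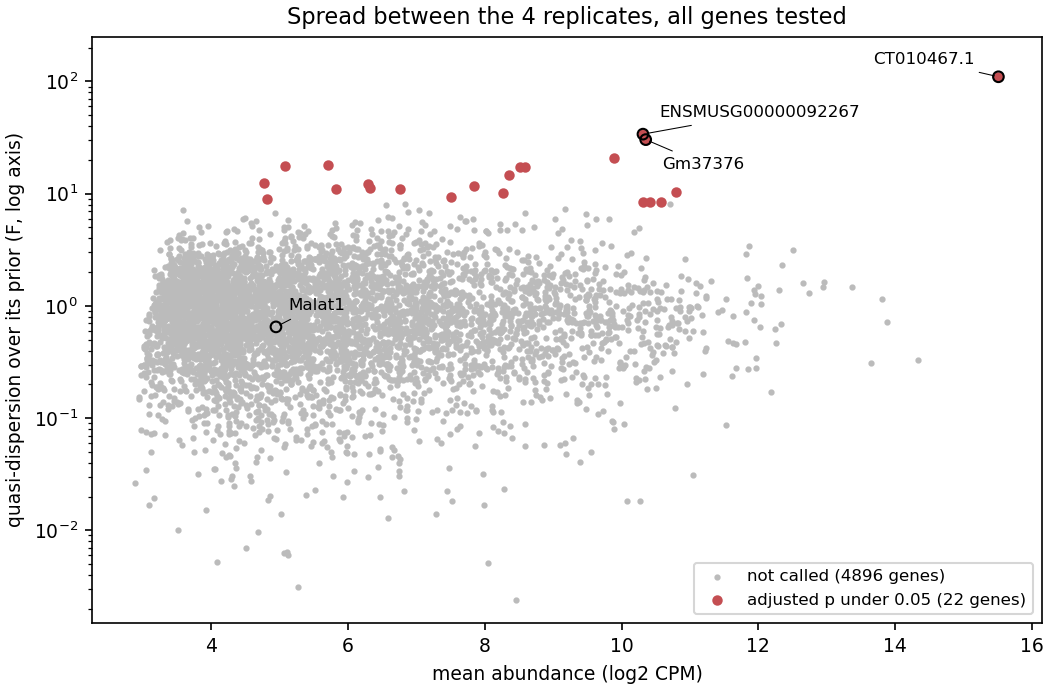
Quasi-dispersion over its prior (F, log axis) against mean abundance in log2 CPM, with a point per tested gene and the 22 genes called by edgeR in red. Gm37376 and ENSMUSG00000092267 lie next to each other at F = 30.3 and 33.9, below only CT010467.1, while Malat1 lies at 0.65 among the genes not called.

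No neighbour that could be tested varied beyond the trend. Within 100 kb of the members lie 21 further genes, of which 10 had 20 or more counts in all and 7 had none. Of these, 4 were tested and 0 passed the edgeR test (lowest adjusted p = 0.988). None (0) had an unadjusted p under 0.05 and none (0) was a dispersion outlier in DESeq2. Over all 4918 tested genes, 281 had an unadjusted p under 0.05 with edgeR and 22 were DESeq2 outliers. Gm16538, an antisense gene opposite Sssca1, had 1460, 1375, 1900 and 1571 counts and was at 2794 ± 76.2 TPM (SD, n = 4). Apart from ENSMUSG00000092267, that is the level nearest to Gm37376 within the window, with a spread over libraries of 3.06% of the mean in CPM against 46.4% for Gm37376.

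Lower counts were found for the other neighbours named here, on either strand. Frmd8os, opposite Frmd8, had 202, 214, 264 and 221 counts, whereas Frmd8, which encodes a membrane-associated FERM domain protein, had 15, 7, 4 and 14. Ltbp3, for a binding protein of latent TGF-beta, had 162, 140, 159 and 201 counts. Sssca1 had 3, 5, 4 and 12 counts. Map3k11, a kinase of the JNK pathway, had 4 to 19 counts per library, and Pola2, a subunit of DNA polymerase alpha, had 6 to 28. Dpf2, a subunit of a chromatin remodelling complex, had 5 to 19 counts, and Ehbp1l1 had 2 to 7. Over the whole window, genes on the plus strand held 97.2 to 99.1% of the counts, most of them in the genes opposite Malat1 and in Gm16538.

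The split of the Malat1 counts between the strands was set beside that of other lincRNA genes. Of 4460 lincRNA genes, 554 have an exon opposite, and 164 of these had 100 or more counts over the gene and its partners together. The median share on the opposite strand was 3.71%, and 39 of the 164 (23.8%) had more than 50% there. For Malat1 the share was 98.9%, from 19210 opposite counts, the second highest number after Gm42418 with 347250 opposite counts (99.9%). A higher share than Malat1 was found for 18 genes, among them Gm26892 (99.4%). For Xist, which coats and silences an X chromosome, it was 97.7%, a value that rests on replicates 1 and 2, which hold nearly all its counts. Because Malat1 was chosen with its values known, this is a description.

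**Figure D5:**
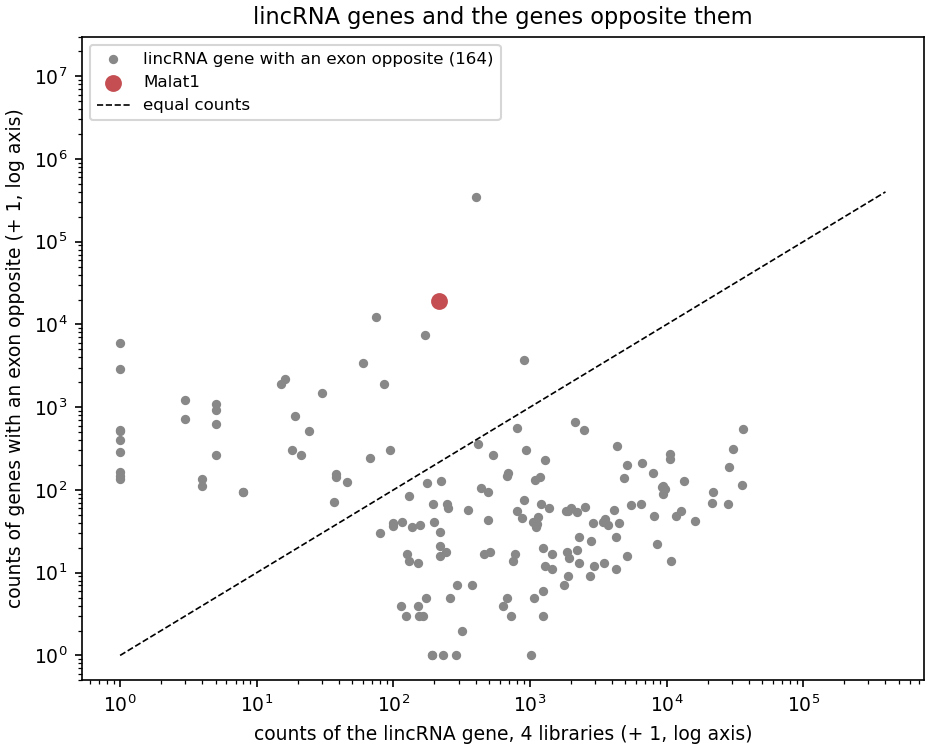
Counts of 164 lincRNA genes (horizontal, + 1, log axis) against the counts of genes with an exon opposite them (vertical, + 1, log axis), summed over 4 libraries, with a dashed line at equal counts. Malat1 (red) lies above the line at 216 own and 19210 opposite counts, while most lincRNA genes lie below it.

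By level, Malat1 took place 199 and Neat1 place 571 among the 4460 lincRNA genes, of which 650 had any count. Among lincRNA genes with an exon opposite, 258 (46.6%) had a count, against 392 (10%) of the 3906 without one. Neat1, which belongs to the latter, took place 337 among the 392. The highest genes there were Gm12319 at 103 ± 29.0 TPM, Prr33 at 94.4 ± 18.2 TPM and Lsmem2 at 81.7 ± 2.68 TPM (SD, n = 4). Gm37376 was second of 2817 TEC models by TPM, after Gm10252, a model opposite the ferritin light chain gene Ftl1, at 5628 ± 265 TPM (SD, n = 4). The next TEC models were Gm43863, opposite Hnrnpf, at 2438 ± 140 TPM and Gm37676, opposite Nucks1, at 2083 ± 77.2 TPM (SD, n = 4), so Gm37376 had the largest SD of the first 4.

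Likeness across the libraries was measured as the root mean square difference of log2 CPM after each gene was centred on its mean, over 4917 other tested genes and 4 libraries. The gene most like Gm37376 was P2rx2, a channel gated by ATP, at 0.06, with 13, 17, 44 and 21 counts. ENSMUSG00000092267 followed at 0.07, then Gpat2 at 0.09, Gm27008 at 0.11 and 5930420M18Rik at 0.11, against a median of 0.61 over all genes. P2rx2, Gpat2, Gm27008 and 5930420M18Rik had at most 44 counts in a library, so ENSMUSG00000092267 was the only abundant gene of these 5. CT010467.1 took place 3830 (0.78), and Malat1 itself took place 1005 (0.51).

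For Malat1 the most similar genes were Maip1, Cenpq, Gramd4, Ankrd26 and 4930429P21Rik, at 0.04 to 0.05 against a median of 0.32. None was called by edgeR, each with an adjusted p of 0.991. No list was made for Neat1, whose mean count was under 20.

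Genes for paraspeckle proteins, the partners of Neat1, were measurable although Neat1 was near the limit of detection on the counted strand. Of 21751 protein-coding nuclear genes, 12296 had a count, 8479 in all 4 libraries, with a median of 0.128 TPM. The median over all genes was 0. Of 34 listed, 33 had a count, 32 in all 4 libraries, with a median of 5.11 TPM. Among those with no exon opposite the highest were Hnrnpa1, a splicing regulator, at 40.3 ± 12.5 TPM, Sfpq, which paraspeckles require, at 40.1 ± 12.7 TPM, and Hnrnpm, another splicing regulator, at 27.2 ± 8.27 TPM (SD, n = 4). Sfpq had 217, 173, 222 and 355 counts. Among those with an exon opposite, Rbm4b was at 100 ± 15.7 TPM (opposite Gm37206), Hnrnpk at 24.6 ± 7.19 TPM (Rmi1) and Dazap1 at 17.5 ± 6.33 TPM (Gm15122) (SD, n = 4). Of 22 tested, 0 passed the edgeR test, 3 had an unadjusted p under 0.05 and 0 were DESeq2 outliers. Of all 4918 tested genes these numbers were 22, 281 and 22.

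Genes for nuclear speckle proteins, the surroundings of Malat1, were all measured. All 36 had counts in 4 of 4 libraries (8479 of 21751 over protein-coding nuclear genes), with a median of 9.52 TPM. Without an exon opposite, Luc7l3 was at 23.6 ± 3.04 TPM, the SR protein genes Srsf9 and Srsf11 at 21.8 ± 3.05 and 21.2 ± 7.06 TPM (SD, n = 4). With one, Thoc1 of the mRNA export complex THO was at 122 ± 3.10 TPM (opposite Usp14), and the SR protein genes Srsf4 and Srsf2 were at 82.3 ± 20.5 TPM (Gm12992) and 34.2 ± 11.1 TPM (Mettl23) (SD, n = 4). Each of these mean levels lay above that of Malat1 on the counted strand. These genes were named as the highest of the list, and some others of the list lay below Malat1. Of 31 tested, 0 passed the edgeR test, 4 had an unadjusted p under 0.05 (281 of 4918 over all genes) and 0 were DESeq2 outliers.

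Genes for the processing and binding of the 2 RNAs were lower, with a median of 2.84 TPM over 29 genes. All had a count, against 12296 of 21751 protein-coding nuclear genes. Pop5, a protein subunit of RNase P, was at 22.4 ± 3.67 TPM, and Hnrnpc, which binds U-rich tracts, and Srrt, a partner of the nuclear cap-binding complex, were at 24.2 ± 5.35 and 23.5 ± 8.06 TPM (SD, n = 4). None of these has an exon opposite. Of those with one, Ints11, the nuclease of the Integrator complex, was at 218 ± 13.5 TPM (opposite Pusl1), Trnt1, which adds CCA to tRNA ends, at 104 ± 5.51 TPM (Crbn) and Mettl3, the m6A methyltransferase, at 54.2 ± 8.31 TPM (Tox4) (SD, n = 4). Of 14 tested, 0 passed the edgeR test, 1 had an unadjusted p under 0.05 (281 of 4918 over all genes) and 0 were DESeq2 outliers.

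Other long noncoding RNAs were mostly low, as Malat1 was on the counted strand. Of 51 sought, 47 were listed, 37 had a count and 19 had one in all 4 libraries. Over all 50600 genes, 17431 had a count and 10876 had one in all 4 libraries. The median of the list was 0.742 TPM, under the Malat1 level. Without an exon opposite the highest were the snoRNA hosts Gas5 at 8.55 ± 0.929 TPM and Snhg5 at 4.61 ± 2.34 TPM, and 1700020I14Rik at 3.15 ± 0.844 TPM (SD, n = 4). With one, Gm15441 was at 102 ± 10.4 TPM (opposite Txnip) and Tug1 at 17.8 ± 4.09 TPM (Morc2a) (SD, n = 4). Tsix, antisense to Xist, split the libraries into replicates 1 and 2 against 3 and 4, a pattern that neither Malat1 nor Gm37376 follows. The filter on low counts removed Tsix and Xist, so the genes of this split were not tested. Of 6 tested, 0 passed the edgeR test, 0 had an unadjusted p under 0.05 (281 of 4918 over all genes) and 0 were DESeq2 outliers.

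In all 4 of these lists the summed level was lowest in replicate 3, where Gm37376 was highest. This was not particular to them. The T cell, T-helper 2 and myeloid marker sums were lowest there too, at 244, 96.3 and 140 TPM, but not the B cell, CD8 and erythroid sums. Of all 4918 tested genes, 738 (15%) were highest in CPM in replicate 3. For the paraspeckle list the sums were 403, 357, 314 and 498 TPM in replicates 1 to 4, and for the speckle list 586, 522, 474 and 713 TPM. For the processing list they were 539, 511, 450 and 545 TPM, and for the other long noncoding RNAs 686, 605, 165 and 168 TPM. Tsix carried most of the last difference, since without it the sums of the other long noncoding RNAs were 197, 178, 164 and 168 TPM. TPM is a share of the library, and the part of the larger rRNA share of replicate 3 in these sums was not tested.

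Markers of the cells were in part at 0. All 15 T cell genes had counts in all 4 libraries (8479 of 21751 over protein-coding nuclear genes). The T cell sums were 244 to 367 TPM, lowest in replicate 3. Cd247, opposite Pou2f1, made up 158 to 178 TPM of these, and without it the sums were 85.6 to 189 TPM. Of 11 T-helper 2 genes 7 had counts, against 12296 of 21751 protein-coding nuclear genes. The T-helper 2 sums were 96.3 to 139 TPM, and 45.2 to 68.0 TPM without Ptgdr2, which lies opposite Ccdc86. Gata3, the master regulator of the subset, had 17, 20, 19 and 21 counts, while Il5, Il13, Maf and Il1rl1 were at 0. Of the other cell types, 1 of 5 B cell genes had counts (Cd79a, sum 4.82 to 9.53 TPM), 2 of 6 myeloid genes (Csf1r and Cd68, sum 140 to 168 TPM), 0 of 4 natural killer genes, 1 of 2 CD8 genes (sum 1.73 to 6.44 TPM) and 1 of 4 erythroid genes (Alas2, sum 4.99 to 12 TPM). Csf1r and Alas2 have an exon opposite, as do 3 of the 15 T cell genes and 5 of the 11 T-helper 2 genes. The erythroid sum was highest in replicate 3, from Alas2 alone, and its part in the level of Gm37376 was not tested.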

How the data were processed

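Gene counts of 4 RNA-seq libraries were used as the authors deposited them. Per the file headers they are whole-number counts per gene made with featureCounts 1.4.6-p4 on mm10 with GENCODE release M13, from exons grouped by gene, with paired reads, both ends aligned and strand option 1. The sources used here do not name the aligner. Symbols, types and transcript sequences were taken from GENCODE M21, also on mm10. Identifiers of 99.6% of 50600 genes were found there, and the others held 0.556% of the counts. Coordinates are 1-based, from the deposited tables.

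From these counts and the gene lengths in the tables, TPM and CPM were calculated. Exons on opposite strands were intersected with bedtools 2.31.1, counting 1 or more shared bases. To test the spread of replicates, edgeR 4.0.16 in R 4.3.3 was fitted to all 4 libraries with an intercept alone, after filterByExpr and with TMM factors and the robust option. The one-sided p is that of a quasi-dispersion above its prior, on 3 residual degrees of freedom. It was adjusted over all tested genes by Benjamini-Hochberg, with a threshold of 0.05. The script was tested on simulated data, where it called 29.2% of genes raised 2-fold in 1 library, 87.9% at 4-fold and 98.5% at 8-fold. DESeq2 1.42.0 served as an alternative, with Python 3.11.15, pandas 2.3.3, numpy 2.4.6, scipy 1.17.1 and matplotlib 3.10.9. Library totals of 1688658 to 2222583 counts limit the precision of low genes.

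The members and the 11 gene lists were chosen with earlier results of these data known. Named are the members, genes that overlap them, neighbours within 100 kb with 20 or more counts (1 of them is not reported here), the 3 highest members of each RNA biology list with and without an exon opposite, and the 5 tested genes most like a member. CT010467.1, mt-Nd6, the markers given by name and the lincRNA and TEC genes set beside the members were named after their values had been seen. Alternatives concerned scaling, length, filters, prior, tool and single replicates left out. Norad, Oip5os1, Morrbid and Pint matched no symbol.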

Additional observations from a re-analysis of the deposited data

Results flagged for a closer look

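A library was set against the other 3 by Dixon's ratio, the gap between the most distant library and its nearest neighbour divided by the whole range, for 67 genes in TPM. In 8 of them 1 library lay beyond Dixon's 95% critical value for 4 samples. Chance alone does so in about 1 of 20 groups of independent, normally distributed values. The share over all tested genes was not calculated, so the 8 are not read as an excess. ENSMUSG00000092267, opposite Malat1, had a ratio of 0.848 from replicate 3, at 7383 TPM against 2673, 3306 and 3390 TPM in replicates 1, 2 and 4. Gm37376 itself stayed under the critical value. Rbm4b had a ratio of 0.837, with 77.1 TPM in replicate 2 against 106, 107 and 112 TPM in replicates 1, 3 and 4. Dazap1 had a ratio of 0.965, with 27.0 TPM in replicate 4 against 14.1 to 14.5 TPM. For Trnt1 the ratio was 0.83, with 112 TPM in replicate 1 against 100 to 102 TPM. For Gm15441 it was 0.865, with 86.5 TPM in replicate 4 against 105 to 108 TPM. Trac, the T cell receptor alpha constant gene, had a ratio of 0.859, with 10 TPM in replicate 3 against 25 to 27.5 TPM. Cd79a, of the B cell receptor, had a ratio of 0.849, with 4.82 TPM in replicate 4 against 8.82 to 9.53 TPM. Csf1r, a growth factor receptor of macrophages, had a ratio of 0.964, with 133 TPM in replicate 3 against 162 to 163 TPM.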

How the results depend on the processing

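No paired analysis was possible because there is 1 group. The cause of the changes below was not tested where the setting does not itself set the value. The share of Gm37376 in the counts of its pair with Malat1 was 99.8% per kilobase and 50.3% with ENSMUSG00000092267 in the total, an alternative chosen after seeing the data, and 97.1 to 97.7% without single replicates. Scaled over protein-coding nuclear genes, levels were 25.9 TPM for Malat1, 17492 TPM for Gm37376 and 0.544 TPM for Neat1, and Malat1 was at 4.26 CPM per kilobase with TMM factors. By the length of its short isoform, also chosen after seeing the data, Neat1 was at 0.887 TPM. Without single replicates, Malat1 was at 5.65 to 6.50 TPM, Gm37376 at 3111 to 4561 TPM and Neat1 at 0.101 to 0.150 TPM. The log2 differences kept their sign under every alternative run, at 8.78 to 9.20 for Gm37376 minus Malat1 and 2.59 to 2.75 for Malat1 minus Neat1 without single replicates, where the smallest possible exact p is 0.25. On log2(CPM + 1) they were 5.30 and 3.46, and with a pseudocount of 0.1 they were 9.27 and 4.79. Genes called by edgeR numbered 2 with library totals only, 44 with a mean count of 10, 56 with any count, 9 without the robust prior and 11 to 21 without single replicates, against 22. The edgeR adjusted p of Gm37376 was 0.0509 with library totals only and ran from 5.09e-12 to 0.801 without single replicates, with 0.801 without replicate 3. That of ENSMUSG00000092267 was 0.98 without replicate 3. The adjusted p of Malat1 was 0.898 to 0.997 in all edgeR settings run. DESeq2 called Gm37376 and ENSMUSG00000092267 dispersion outliers, and not Malat1. Genes with an exon opposite held 91.8 ± 1.35% of counts (SD, n = 4), 91.3 to 92.4% without single replicates and 85.6% when 100 shared bases were asked for. Gm37376 was at place 128 by count, at 106 to 199 without single replicates (added after seeing the data) and at 33 by TPM. Among genes within 2-fold in abundance, 1 of the 5 genes most like Malat1 remained, and 1 of the 5 most like Gm37376. The share per kilobase of exon common to both genes was not run, because the tables do not place the Malat1 counts along its exon. Neat1 had the fewest counts of the members, with 2 to 5 per library, and what keeps them low was not tested.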
